A study of Mus musculus with 10 samples.

Results

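Brain endothelial cells (BECs) carry organic anions and thyroid hormones across the blood–brain barrier through a small set of membrane carriers, and 4 of these genes were examined here: *Slco1c1*, *Slco1a4*, *Slco2b1* and *Slc22a8*. They were chosen by name and not by a measured value, but with earlier results of these data known. All 4 were found among the 14106 genes of the expression table. Bulk RNA-seq had been made of CD31+CD45− cortical cells of females aged 1 year, with 5 APP/PS1 and 5 control libraries. APP/PS1 mice carry 2 transgenes, 1 for amyloid precursor protein (a mouse/human chimera, APPswe, with the Swedish mutation) and 1 for a mutant human presenilin 1 (PS1ΔE9), which the study describes as expressed in all tissues, on a C3H/BL6 background. The control mice were wild type, and cells of both genotypes were isolated in the same way, with enzymatic digestion, removal of myelin and selection on CD31 beads. The sources used here do not state if animals were pooled for a library, so each SD is the spread between libraries and may in part be technical. The values are log2 CPM (reads per gene scaled to library size) that were already corrected for batch, and the control and APP/PS1 library with the same replicate number are called a pair below. A plot in the study's supplement numbers each pair as a batch of its own, whereas the sample labels put replicates 4 and 5 of both genotypes into 1 batch. The correction left the means of the pairs nearly equal for most genes. A library that is high in one group therefore has a partner that is low by about the same amount in the other. Some variable or weakly expressed genes, such as *Dio2* below, depart from this.

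The SLCO genes encode organic anion transporting polypeptides (OATPs), which take up bile acids, steroid conjugates, thyroid hormones and many drugs without using ATP. OATP1C1, the product of *Slco1c1*, has a high affinity for the prohormone thyroxine (T4) and helps to bring thyroid hormone into the rodent brain. OATP1A4 (*Slco1a4*) moves organic anions, bile acids and cardiac glycosides, and OATP2B1 (*Slco2b1*) takes up steroid sulfates and statins. OAT3, the product of *Slc22a8*, belongs to another family, exchanges organic anions against dicarboxylates and clears metabolites and drugs from brain to blood; it is also known in kidney and choroid plexus.

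*Slco1c1* was higher in APP/PS1 than in control in each of the 5 pairs, by 11.4% on average, but did not pass the adjusted test. *Slco1a4*, *Slco2b1* and *Slc22a8* were higher in 2 pairs and lower in 3, with mean differences between −1.15% and −5.12%. None of the 4 carriers was called by limma after adjustment (0% of all genes were), and none passed 0.05 before it. Before adjustment 8.03% of all genes passed (2.13% higher in APP/PS1 and 5.91% lower), and 48.2% of all genes had a positive difference. By level, *Slco1a4* and *Slco1c1* stood among the 40 highest of the 14106 genes per exon length, and *Slc22a8* and *Slco2b1* among the 410 highest.

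The 4 genes lie at 3 places in the genome (GRCm38, the assembly also called mm10). *Slco1c1* (ENSMUSG00000030235) spans chr6:141524368-141570177 on the plus strand, and *Slco1a4* (ENSMUSG00000030237) spans chr6:141805440-141856199 on the minus strand of the same chromosome. *Slco2b1* (ENSMUSG00000030737) spans chr7:99657804-99711340 on the minus strand, and *Slc22a8* (ENSMUSG00000063796) spans chr19:8591254-8611835 on the plus strand. All 4 are protein-coding genes of the GENCODE M21 annotation. The 250 bases before the RefSeq transcription start (GRCm38.p6) are shown for 3 of them, because *Slco1c1* and *Slco1a4* were the highest carriers and *Slc22a8* moved with *Slco1a4* from pair to pair, as given further on. Each is written from 5′ to 3′ on the strand of its gene, and capitals mark matches to the letters AGGAAG, the core bound by ETS factors such as ERG of endothelial cells, or to ACAAAG, a core bound by SOX factors. Both strands were searched, so that a match on the other strand reads CTTCCT for ETS factors, while for the SOX core such a match reads CTTTGT.
Slco1c1, chr6:141524104-141524353, plus strand: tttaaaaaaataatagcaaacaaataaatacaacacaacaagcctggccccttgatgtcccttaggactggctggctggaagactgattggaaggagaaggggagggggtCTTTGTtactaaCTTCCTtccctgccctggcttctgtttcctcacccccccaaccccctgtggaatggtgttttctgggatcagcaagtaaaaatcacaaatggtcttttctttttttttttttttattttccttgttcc
Slco1a4, chr6:141856221-141856470, minus strand: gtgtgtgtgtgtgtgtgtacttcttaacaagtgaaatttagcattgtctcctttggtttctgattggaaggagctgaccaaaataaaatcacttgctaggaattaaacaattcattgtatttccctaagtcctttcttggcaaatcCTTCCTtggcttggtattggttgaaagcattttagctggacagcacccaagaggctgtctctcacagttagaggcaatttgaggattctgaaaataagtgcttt
Slc22a8, chr19:8592932-8593181, plus strand: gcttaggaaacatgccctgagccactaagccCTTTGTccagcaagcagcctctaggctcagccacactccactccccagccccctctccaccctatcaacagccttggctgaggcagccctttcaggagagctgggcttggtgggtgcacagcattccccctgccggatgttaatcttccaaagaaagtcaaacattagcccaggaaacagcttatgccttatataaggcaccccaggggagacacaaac

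The *Slco1c1* window held a SOX match at −140 to −135 and an ETS match at −128 to −123, counted from the transcription start. The *Slco1a4* window held an ETS match at −104 to −99, and the *Slc22a8* window a SOX match at −219 to −214. Of 32851 promoter windows of the same length in the mouse genome, 29.5% held an ETS match and 16.5% a SOX match, so both are common. None of the 3 windows held AGGTCA, the core of nuclear receptor sites, which stood in 14.0% of all windows. The same was true of CTTTGA, a form of the core of TCF/LEF sites (13.8% of all windows). The form CTTTGTT was not searched, and it stands in the *Slco1c1* window, where CTTTGT is marked as a SOX match. The string TATAAA, a form of the TATA box, was likewise not matched (12.4% of all windows), and neither was the GATA core, searched as GATAAG (6.55% of all windows). Other forms of the TATA box were not searched, and the *Slc22a8* window holds TATATAAG near the transcription start. *Slco2b1* has 3 annotated starts, and only the window of the third held a match, AGGAAG at −225 to −220. The G and C bases made up 42.8% of the *Slco1c1* window and 39.2% of the *Slco1a4* window, below the median of 52.4% over all windows, against 55.2% for *Slc22a8* and 52.8% to 58.0% for the starts of *Slco2b1*. For *Slc22a8*, the annotated gene of GENCODE begins further upstream than the RefSeq start used here. A match of these letters is a description of the sequence and not a binding site.

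*Slco1a4* lies beside close relatives, so the part of its reads that could also fit another gene was examined. Over the coding sequence, *Slco1a4* was identical to *Slco1a5* at 89.3% of aligned bases, to *Slco1a1* at 86.6% and to *Slco1a6* at 85.0%, but to *Slco1c1* at only 56.8% and to *Slco2b1* at 54.8%. The longest run shared with *Slco1a5* was 139 bases and is shown with its flanks, coding positions 661 to 823 of both genes counted from the A of the start codon, with the bases that differ (T672A and T812C, *Slco1a4* first) in capitals.
Slco1a4: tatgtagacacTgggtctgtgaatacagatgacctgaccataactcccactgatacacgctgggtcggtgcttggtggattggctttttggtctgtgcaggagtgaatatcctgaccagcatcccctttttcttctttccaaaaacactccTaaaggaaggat
Slco1a5: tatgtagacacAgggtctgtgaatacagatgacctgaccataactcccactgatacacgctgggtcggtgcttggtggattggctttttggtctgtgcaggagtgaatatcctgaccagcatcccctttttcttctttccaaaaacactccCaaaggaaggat

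Such identical stretches made up a small part of the transcripts. Of the windows of 50 bases in *Slco1a4* transcripts, 1.61% were found in another annotated gene, and of the windows of 100 bases, 0.640%. No window of *Slco1c1* was found in another gene at either length, and of *Slc22a8* 0.457% were at 50 bases and none at 100. For *Slco2b1* the share was 5.89% at 50 bases, nearly all of it in *Gm15635* (5.38%), a gene annotated on the opposite strand over 471 of the 5958 exon bases of *Slco2b1*. Whether the counting used strand is not stated in the sources used here, so reads of *Slco2b1* and *Gm15635* over these bases may not be told apart. *Gm15635* stood at 3.27 log2 CPM over the 10 libraries and *Slco2b1* at 8.93. The read length is likewise not stated, and the windows were read from the annotation and not from reads.

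Before the carriers were compared, the labelled cell type was checked against its markers. All 15 endothelial markers were measured, led by *Slc2a1* (the glucose carrier GLUT1), *Flt1* (a VEGF receptor) and *Itm2a*, and their summed level was 26640 to 28754 CPM in control and 26857 to 29037 CPM in APP/PS1 libraries. The summed adjusted counts of a library ran from 22371766 to 126686149, and both libraries of pair 1 were the smallest (22371766 and 22993426). The deposited values carry the batch correction, so their counting error is unknown. In bulk libraries, fewer cells of a type and less RNA per cell cannot be told apart.

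*Slco1a4* had the highest level of the 4 carriers per exon length. It stood at 9.18 ± 0.09 log2 CPM per kb (SD over 10 libraries), rank 31 of 14106 genes, with a range of 9.08 to 9.28. *Slco1c1* followed at 8.98 ± 0.10 log2 CPM per kb, rank 40, and was below *Slco1a4* in every one of the 10 libraries, by 0.02 to 0.37. The next carrier, *Slc22a8*, stood at 6.93 ± 0.07 log2 CPM per kb, rank 259, which is 4.75-fold below *Slco1a4*. *Slco2b1* was the lowest at 6.35 ± 0.10 log2 CPM per kb, rank 410, below *Slc22a8* by 0.36 to 0.80 in all 10 libraries. The order was the same in the control means, in the APP/PS1 means and when the longest transcript was used as the length. All gaps between neighbours in this order were larger than their SD across libraries, the smallest being 0.20 with an SD of 0.12 between *Slco1a4* and *Slco1c1*. The 10 libraries are 5 pairs with nearly equal pair means, so this SD holds almost no spread between batches.

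Other carriers of the barrier put these levels in place. *Slc7a5*, the light chain of the large neutral amino acid carrier LAT1 that also takes thyroid hormones, stood at 8.94 ± 0.11 log2 CPM per kb, within 1 SD of *Slco1c1*. *Abcb1a*, the efflux pump P-glycoprotein, stood at 8.83 ± 0.05. *Slc22a8* lay within 1 SD of *Abcc4* (MRP4, a pump for organic anions) at 6.96 ± 0.08 log2 CPM per kb. *Slco2b1* came after *Abcg2* (the pump BCRP) at 6.78 ± 0.08.

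**Figure D1:**
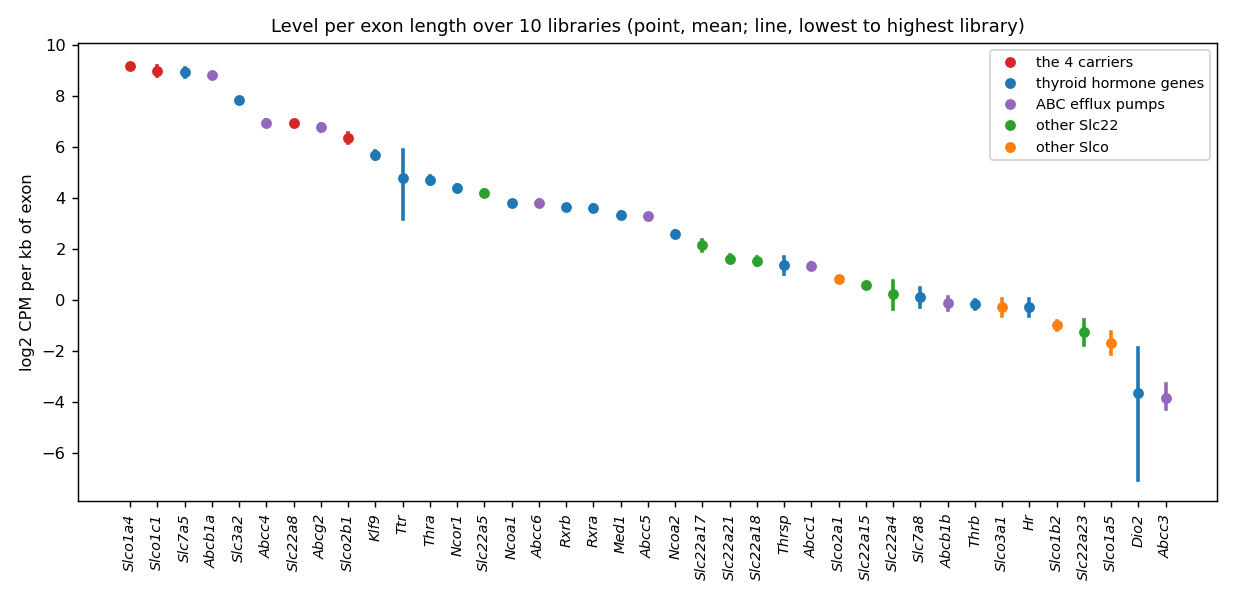
Level per exon length of the 4 carriers and of related genes in log2 CPM per kb of exon, as the mean over 10 libraries (point) and the lowest to highest library (line), coloured by group. *Slco1a4* (9.18) and *Slco1c1* (8.98) stand first and second, while the other 4 *Slco* genes lie between 0.83 and −1.69.

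Within the OATP family, nearly all transcript per length came from the 3 members. Of 12 listed further *Slco* genes, 4 were in the table, and over these 7 *Slco* genes *Slco1a4* held 49.5% of the summed CPM per kb, *Slco1c1* 43.2% and *Slco2b1* 6.99%. *Slco2a1*, the prostaglandin carrier, held 0.152%, and *Slco3a1*, *Slco1b2* and *Slco1a5* held 0.0713%, 0.0432% and 0.0268%. The share of *Slco1c1* had a median of 41.6% in control libraries (40.4% to 43.3%) and of 44.8% in APP/PS1 libraries (43.1% to 46.1%). The share of *Slco1a4* had a median of 51.3% in control (48.1% to 52.2%) and 47.9% in APP/PS1 libraries (46.8% to 50.8%), so the groups overlapped for both. *Slco1a5*, the nearest relative of *Slco1a4* in the table, stood at −1.69 log2 CPM per kb against 9.18 for *Slco1a4*.

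The comparison of the genotypes asks whether the endothelium of a brain with amyloid carries these transporters at another level. *Slco1c1* read 11.31, 11.32, 11.17, 11.27 and 11.34 log2 CPM in control libraries 1 to 5. In APP/PS1 libraries 1 to 5 it read 11.40, 11.40, 11.55, 11.46 and 11.38 log2 CPM. The groups did not overlap, the lowest APP/PS1 library standing just above the highest control library. Of all 14106 genes, 7.88% had groups that did not overlap, 2.91% with APP/PS1 higher. The same direction in all 5 pairs was seen in 7.99%, with APP/PS1 higher in 2.99%. Since pair means are nearly equal for most genes, the 2 counts describe nearly the same thing. The group means were 11.28 ± 0.07 in control and 11.44 ± 0.07 in APP/PS1 (SD, n = 5 each). The log2 fold change of *Slco1c1* was 0.16 with a standard error of 0.06 and a 95% interval of −0.0033 to 0.31, with an adjusted p of 0.632 and an unadjusted p of 0.0535 in limma. The 5 paired differences were 0.09, 0.08, 0.38, 0.19 and 0.03 log2 units, and that of pair 3 was the largest. Without pair 3 the log2 fold change was 0.10, and with each library centred on its endothelial markers it was 0.083. The exact two-sided sign-flip permutation test over 5 pairs gave a p of 0.0625, which is the smallest that 5 pairs can give.

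*Slco1a4* read 11.92, 11.77, 11.77, 11.94 and 11.96 log2 CPM in control libraries 1 to 5. In the APP/PS1 libraries it read 11.81, 11.94, 11.96, 11.79 and 11.77 log2 CPM. Both groups covered almost the same range, with pairs 2 and 3 higher in APP/PS1 and pairs 1, 4 and 5 lower. The log2 fold change was −0.02 with a standard error of 0.08 and an adjusted p of 0.972 in limma. Its 95% interval of −0.21 to 0.18, or 0.864-fold to 1.13-fold, leaves room for changes of either sign within these bounds. Leaving out pair 1, 4 or 5 turned the sign, to 0.0072, 0.017 and 0.025, and with libraries centred on endothelial markers the value was −0.090.

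*Slc22a8* read 9.01, 8.87, 8.84, 8.94 and 8.97 log2 CPM in control libraries 1 to 5. In the APP/PS1 libraries it read 8.79, 8.93, 8.96, 8.87 and 8.83 log2 CPM. As for *Slco1a4*, pairs 2 and 3 were higher in APP/PS1 and the other pairs lower, and the groups overlapped. The log2 fold change was −0.05 with a standard error of 0.06, a 95% interval of −0.21 to 0.11 and an adjusted p of 0.893 in limma. Without pair 1 it was −0.0056, and with libraries centred on endothelial markers −0.12.

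*Slco2b1* read 8.89, 9.11, 8.97, 8.96 and 8.89 log2 CPM in control libraries 1 to 5. In the APP/PS1 libraries it read 8.96, 8.73, 8.89, 8.90 and 8.96 log2 CPM. The pair 2 libraries were the highest control and the lowest APP/PS1 library, and the differences of the other pairs lay between −0.08 and 0.07. The log2 fold change was −0.08 with a standard error of 0.08, a 95% interval of −0.27 to 0.12 and an adjusted p of 0.867 in limma. Without pair 2 it was 0.0015, so the lower mean in APP/PS1 rested on that pair, and with libraries centred on endothelial markers it was −0.15. The antisense gene *Gm15635* differed by 0.02, −0.33, −0.03, −0.30 and 0.13 in pairs 1 to 5. The other antisense gene, *Gm34280*, which overlaps 78 exon bases, differed by 0.19, 0.20, 0.19, −0.27 and 0.47.

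**Figure D2:**
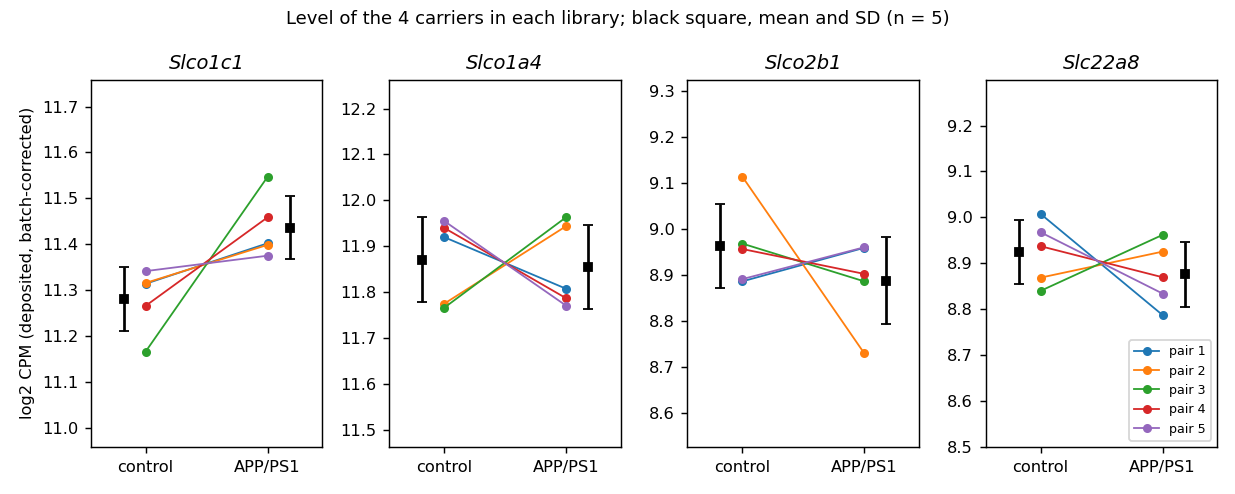
Level of each carrier in log2 CPM (deposited, batch-corrected values) in the 5 control and 5 APP/PS1 libraries, with lines joining the libraries of a pair and black squares for the mean and SD (n = 5); every vertical axis covers the same span. Only for *Slco1c1* do all 5 lines rise and the groups not overlap. The lines of a panel cross near a point because pair means are nearly equal.

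The 4 carriers did not move together from pair to pair. *Slco1a4* and *Slc22a8*, carriers of different families on different chromosomes, had the same sign in all 5 pairs, and their paired differences lay 0.089 log2 units apart (root mean square). That placed *Slc22a8* at rank 130 of the 10872 other genes with a mean above 2 log2 CPM by nearness to *Slco1a4*, of which 5.19% shared its sign in all 5 pairs. The gap between both in log2 CPM per kb stayed at 2.25 with an SD of 0.05 over the 10 libraries, while the other 5 gaps between carriers had SDs of 0.12 to 0.17. The gap of *Slco1c1* over *Slc22a8* was wider in APP/PS1 in 5 of 5 pairs, by 0.20 on average. Its exact sign-flip permutation p was 0.0625, the smallest possible, and 0.375 after adjustment over the 6 gaps. The gap of *Slco1c1* to *Slco1a4* changed by 0.17 in the same direction, in 4 of 5 pairs (exact permutation p adjusted over the 6 gaps, 0.375).

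For each carrier, the genes with the nearest 5 paired differences were listed among 10872 genes, as a description. For *Slco1c1* they were *Dleu2*, *Usp18* and *Fbxo7*, at 0.057, 0.062 and 0.065 log2 units. *Usp18* encodes a protease that removes the interferon-induced modifier ISG15, and *Fbxo7* a subunit of a ubiquitin ligase. For *Slco1a4* they were *Coa6*, *Thnsl1* and *H2afj* at 0.030, 0.037 and 0.044, and 230 genes lay within 0.1. For *Slco2b1* they were *Pcbp3*, *Thap4* and *Parp16* at 0.043, 0.045 and 0.051. For *Slc22a8* they were *Mrpl3* (a mitochondrial ribosomal protein), *Vbp1* and *Ccdc43* at 0.032, 0.033 and 0.037, with 573 genes within 0.1 against 40 for *Slco1c1* and 70 for *Slco2b1*. The carriers' own 5 differences had a root mean square of 0.13 (*Slc22a8*), 0.17 (*Slco1a4*), 0.18 (*Slco2b1*) and 0.20 log2 units (*Slco1c1*). The counts of near genes fell in that order, so they follow the size of these differences. With 5 values a gene, at least 40 genes came within 0.1 of each carrier.

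The other genes of both families were lower in level and differed in both directions. Of the 4 further *Slco* genes, 1 had an unadjusted p under 0.05, against 8.03% of all genes. *Slco3a1*, a carrier of prostaglandins and T4, had a control mean of 2.97 ± 0.11 log2 CPM and an APP/PS1 mean of 2.64 ± 0.12 (SD, n = 5), lower in 5 of 5 pairs. Its log2 fold change was −0.33 with a standard error of 0.09 and an adjusted p of 0.554 in limma, against 5.91% of all genes with an unadjusted p under 0.05 in that direction. *Slco1b2*, the OATP of hepatocytes, was higher in 5 of 5 pairs by 0.10 on average, at about 1.3 log2 CPM. *Slco1a5* differed by 0.31 and was higher in 4 of 5 pairs, and *Slco2a1* differed by −0.04, both with intervals that cover 0.

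Of 24 listed *Slc22* genes besides *Slc22a8*, 7 were in the table, 3 with a positive and 4 with a negative difference, and 2 had an unadjusted p under 0.05, against 8.03% of all genes. *Slc22a23*, an orphan member of the family, had means of 1.65 ± 0.16 (control) and 1.23 ± 0.19 log2 CPM (APP/PS1), with a log2 fold change of −0.42 and lower values in 5 of 5 pairs (adjusted p = 0.569 in limma). *Slc22a17*, a receptor for lipocalin 2, differed by −0.20 and was lower in 4 of 5 pairs (adjusted p = 0.621 in limma). *Slc22a21*, a carnitine carrier, was higher in 5 of 5 pairs by 0.13. The other carnitine and ergothioneine carriers, *Slc22a5* and *Slc22a4*, differed by −0.02 and 0.33, and *Slc22a15* and *Slc22a18* by 0.03 and −0.03. None of these *Slco* and *Slc22* genes had an adjusted p under 0.05.

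**Figure D3:**
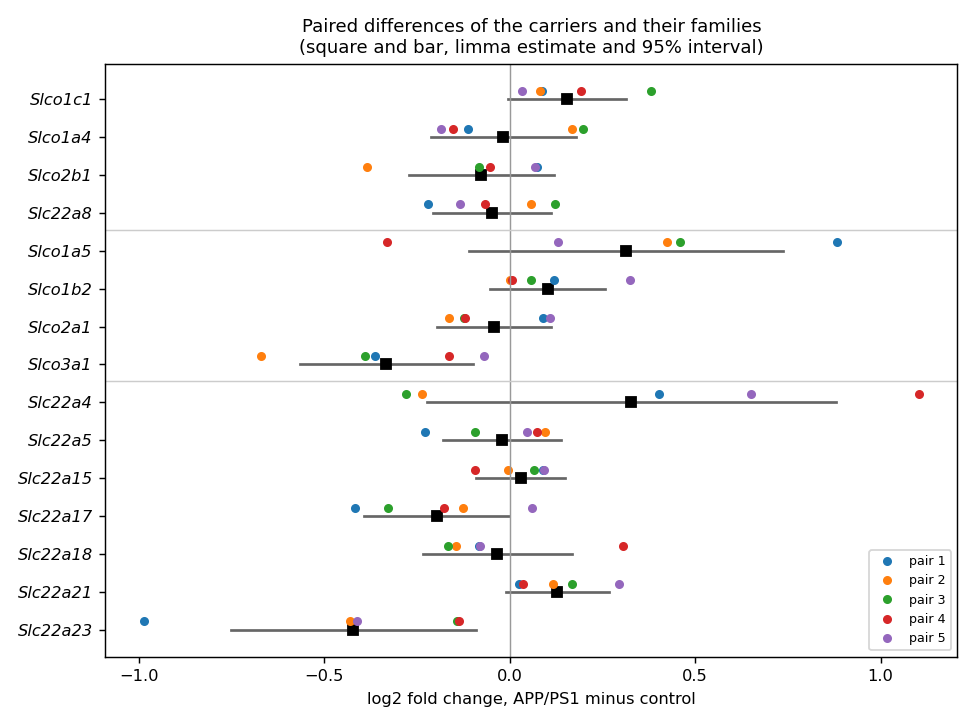
Log2 fold change, APP/PS1 minus control, of the 4 carriers (top), the 4 other *Slco* genes (middle) and the 7 other *Slc22* genes (bottom), with the limma estimate (square), its 95% interval (bar) and the 5 paired differences (coloured points). The intervals of *Slco3a1*, *Slc22a17* and *Slc22a23* end below 0, and those of all 4 carriers include 0.

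*Slco1c1* belongs to the supply line of thyroid hormone, which holds further carriers, deiodinases that activate or inactivate the hormone, nuclear receptors with their cofactors, and responding genes. Of 22 listed genes, 16 were in the table, 10 with a positive and 6 with a negative difference. The median log2 fold change was 0.017, against −0.0038 over all genes. None passed after adjustment. Before it, 3 had p under 0.05, of which 1 was higher (2.13% of all genes were) and 2 lower (5.91% of all genes). Among the carriers, *Slc7a5* (LAT1) differed by 0.16 in 4 of 5 pairs and *Slc7a8* (LAT2) by 0.32 in 5 of 5 pairs. *Slc7a8* was low, with control at 2.28 ± 0.15 and APP/PS1 at 2.60 ± 0.14 log2 CPM, with an adjusted p of 0.580 in limma.

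The 2 lower genes of that list are known from other cells. *Ttr*, which encodes the T4-binding protein transthyretin and is a hallmark of choroid plexus, had means of 5.56 ± 0.39 (control) and 4.53 ± 0.64 log2 CPM (APP/PS1), lower in 4 of 5 pairs (log2 fold change −1.03, adjusted p = 0.594 in limma). *Dio2*, the deiodinase that activates T4 and is known from astrocytes and tanycytes, read 0.66, −0.73, 0.28, 0.30 and 0.02 log2 CPM in control libraries 1 to 5. In APP/PS1 libraries it read −3.65, −0.54, −1.70, −4.51 and −1.33 log2 CPM, and the lowest of these lay near the lowest value of the table (−4.85). Pair 2 was the only one with the higher value in APP/PS1. Its log2 fold change of −2.45 (adjusted p = 0.569 in limma) depends on the prior count and is no measure of size.

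ATP-driven pumps take part in the export of organic anions and drugs from the endothelium. Of 10 listed genes, 8 were in the table, 7 with a positive and 1 with a negative difference, and none had an unadjusted p under 0.05, against 8.03% of all genes. The largest differences were 0.10 for *Abcb1b*, 0.08 for *Abcc4* and 0.04 for *Abcc5*. *Abcc4*, whose product moves organic anions out of the endothelium into blood, had means of 9.59 ± 0.07 (control) and 9.67 ± 0.07 log2 CPM (APP/PS1).

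Markers of several other cell types had negative differences, and their part in the differences above was not tested. The summed level of the 4 carriers differed by −0.04, 0.09, 0.24, −0.02 and −0.09 log2 units in pairs 1 to 5, and that of the 15 endothelial markers by −0.0050, −0.10, 0.12, 0.09 and 0.0080. All 12 mural cell markers had a negative difference, 9 of them with an unadjusted p under 0.05 (5.91% of all genes in that direction), with a median of −0.76 and *Rgs5* as the highest at 8.88 ± 0.34 log2 CPM in control. Their summed level was 633 to 1066 CPM in control and 330 to 639 CPM in APP/PS1. The mural sum differed by −1.69, −0.32, −0.42, −1.35 and 0.02 log2 units in pairs 1 to 5.

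Choroid plexus, which is known to express *Slc22a8* and other organic anion carriers, was represented by 7 of 12 listed markers, 6 lower and 4 of these with an unadjusted p under 0.05, which 5.91% of all genes had in that direction. Their summed level was 202 to 246 CPM in control and 160 to 199 CPM in APP/PS1, lower in 5 of 5 pairs, and the median log2 fold change was −1.03. In control, the 7 markers stood at 7.17 (*Enpp2*), 5.56 (*Ttr*), 3.63 (*Aqp1*), 2.86 (*Kl*), 0.65 (*Clic6*), 0.26 (*Prlr*) and −0.05 log2 CPM (*Tmem72*), and *Enpp2* is also known outside the choroid plexus. *Enpp2* weighs most on the sum, yet it differed by only −0.06 and was higher in APP/PS1 in 3 of 5 pairs. In pair 2, where the sum differed by −0.62, *Enpp2* differed by −0.49 and *Aqp1* by −1.67. *Aqp1* was higher in APP/PS1 in 4 of 5 pairs. The part of choroid plexus in the level of *Slc22a8* was not tested. Astrocyte markers were lower in 9 of 10 genes, with a median of −0.96, while their summed level overlapped between the groups (273 to 313 CPM in control and 271 to 322 CPM in APP/PS1). That sum mostly reflects *Gja1* (7.09 log2 CPM in control, difference 0.27) and *Fgfr3* (6.75, difference −0.06). *Slc1a2* (4.56) and *Slc1a3* (3.55) differed by −1.48 and −0.86, so the overlap of the sums does not show an equal astrocyte part. Of 8 microglial markers 4 were lower, with a median of −0.0054. The medians were −0.58 for 4 fibroblast markers, −1.05 for 5 neuronal markers and −1.83 for 7 oligodendrocyte markers, against 0.036 for the endothelial markers. No gene of any of these lists had an adjusted p under 0.05.

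**Figure D4:**
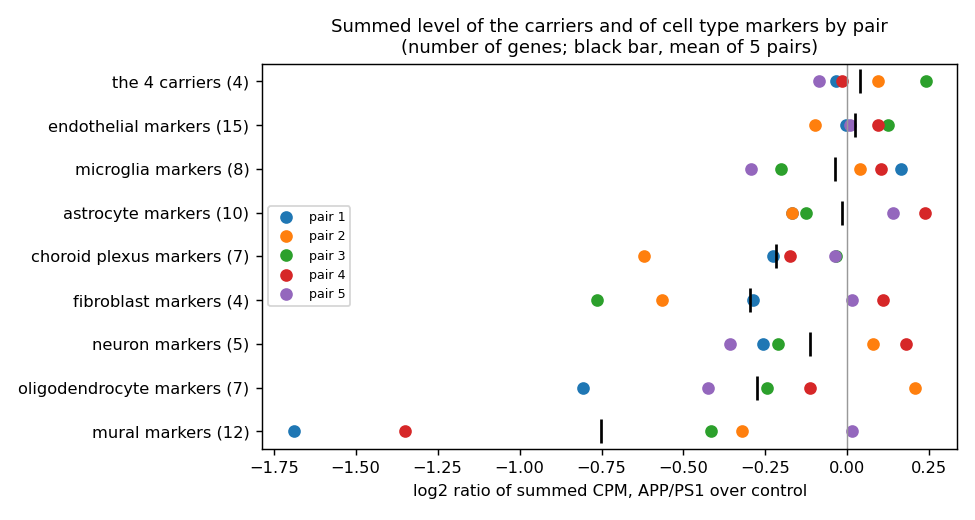
Log2 ratio of the summed CPM, APP/PS1 over control, in each of the 5 pairs (coloured points) and as their mean (black bar) for the 4 carriers and for 8 lists of cell type markers, with the number of genes in brackets. The carriers, the endothelial markers and the astrocyte markers stay within 0.25 of 0 in every pair, while the mural markers reach −1.69 in pair 1.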

How the data were processed

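RNA of cortical BECs was sequenced in 10 libraries. By the study's methods, the authors used STAR for alignment to mm10 and HTSeq-count for gene counts, removed weakly expressed genes and computed log2 CPM with edgeR and corrected batches with ComBat, and log2 values of 14106 genes were deposited; tool versions and read length are not given in the sources used here. All values (100% per library) could be turned into whole adjusted counts (tolerance 0.01, mean prior count 3); after the correction these are no longer reads, and their counting error is unknown. ComBat applied to log2 CPM would not in general leave whole numbers, so which correction was used, and in which order, is not settled here. Pair means are nearly equal for most genes in the deposited values (median over genes of the SD of pair means, 0.0035). The deviations of both groups therefore nearly mirror each other, and their SDs hold almost no spread between batches. The lowest log2 CPM was −4.85.

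Genes were matched to GENCODE M21 symbols (all 14106 found). limma 3.58.1 in R 4.3.3 (lmFit and eBayes) was fitted to all genes with genotype and replicate number as terms, leaving 4 residual degrees of freedom, with Benjamini-Hochberg adjustment of the p values over all 14106 genes and a threshold of 0.05. The study's methods name limma without a batch term, which is an alternative here. Replicate numbers pair the libraries because a plot in the study's supplement numbers 5 batches, each with 1 library of either genotype; the labels give 4 batches. Deviations within a pair had rank correlations of −0.999 to −0.989 over 10873 genes, which nearly equal pair means force, so they say nothing about pairing. Levels per kb used the union of annotated exons. Named genes were the 4 carriers, all detected *Slco* and *Slc22* genes, the 3 largest differences and any unadjusted p under 0.05 of the thyroid hormone and pump lists, the 3 genes nearest to each carrier and the highest or lowest markers of each cell type; *Slc7a5*, *Abcb1a* and *Abcg2* were added for their level after their values were seen. Some genes of the thyroid hormone list are not reported here. The carriers and lists were chosen with earlier results of these data known. The alternatives were no block, 4 batches, each replicate left out, another prior count, 3 other scalings, a filter on low values, a mean-variance trend, voom on the adjusted counts, and the longest transcript as length. Promoters came from RefSeq (GRCm38.p6; windows found for all 4 carriers) and coding sequences from GENCODE M21; protein sequences were not used here, so identity was computed on coding sequence.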

Additional observations from a re-analysis of the deposited data

Results flagged for a closer look

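In 30 groups of 5 libraries (15 *Slco* and *Slc22* genes in 2 genotypes), 1 gene had a library far from the others of its group. *Slc22a18*, an imprinted gene of the family, read 2.16 log2 CPM in control 4, below the other control libraries, and its gap to the nearest library was 0.823 of the range of the group. In APP/PS1 4 it read 2.47 log2 CPM, above the other APP/PS1 libraries, with a gap of 0.795 of the range. The critical share for 5 libraries is 0.71, and chance alone passes it in about 1 group in 20. The libraries of a pair mirror each other after the batch correction, so these are not independent of each other. No library of the 4 carriers was marked in this way.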

How the results depend on the processing

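The 4 carriers stayed without a call in every one of 14 alternative settings. The lowest adjusted p of *Slco1c1* over these was 0.0778, without the replicate block, and its log2 fold change was positive in all of them, from 0.083 when libraries were centred on endothelial markers to 0.19, and between 0.099 and 0.19 when a replicate was left out. *Slc22a8* was negative throughout (−0.091 to −0.0056 with a replicate left out). Centring libraries on endothelial markers gave the lowest values of the other carriers, −0.12 for *Slc22a8*, −0.15 for *Slco2b1* and −0.090 for *Slco1a4*. *Slco1a4* turned positive without replicate 1 (0.0072), 4 (0.017) and 5 (0.025) (lowest value with a replicate left out, −0.070), and *Slco2b1* turned positive without replicate 2 (0.0015; lowest value with a replicate left out, −0.11).

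Counts over all genes depended on the pairing. Without the replicate block 648 genes had an adjusted p under 0.05 in limma, against 0 with it. The counts at an unadjusted p under 0.05 were 1212 higher and 1837 lower, against 300 and 833. Values with nearly equal pair means keep almost no spread between batches, and a fit without the block counts those degrees of freedom. With 4 batches the counts were 1 gene adjusted and 517 higher. Leaving out a replicate gave 0 to 5 adjusted calls (5 without replicate 2 and 1 without replicate 5), 201 to 826 higher (826 without replicate 2) and 517 to 1182 lower (517 without replicate 1 and 549 without replicate 3). Library totals gave 156 higher, and centring on endothelial markers gave 98 higher and 1318 lower; these scalings moved the median of all genes to −0.041 and −0.077 and the cause was not tested further. With the longest transcript, levels were 9.69 for *Slco1c1*, 9.93 for *Slco1a4*, 6.79 for *Slco2b1* and 7.12 log2 CPM per kb for *Slc22a8*, in the same order.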
